A study of Mus musculus with 12 samples.

Results

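The cardiac transcription and contractile genes described here were 10 genes of the 34836 gene names on the arrays, read by 13 of 55681 probes. They comprise the transcription factors Nkx2-5, Hand1, Hand2, Mef2c, Tbx5 and Tbx20, the co-activator Myocd, and the contractile proteins Myl3, Myl7 and Tnnt2. These genes were chosen as targets of Gata4 and Gata6 in heart and with their values on these arrays known. They were selected on the low signals of Nkx2-5 and Myocd and the strong rise of Myl3 in Sox7 (-/-) cells. Every difference that involves the Sox7 (-/-) XEN-like cells is therefore given for these genes as a description, without a test. The Dex response of Sox7 (+/-) cells and the genotype difference in ES cells were not named in the choice and were tested with limma. They share arrays with the differences used in the choice, so the p-values of Nkx2-5, Myocd and Myl3 are not independent of it.

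RNA had been taken at day 4 from mouse ES cells that carried Gata6GR, full-length Gata6 fused to the ligand-binding domain of the glucocorticoid receptor, which enters the nucleus when dexamethasone (Dex) is added. The 4 groups of 3 arrays were Sox7 (+/-) cells without Dex (ES cells) or with Dex (XEN-like cells, resembling extraembryonic endoderm), and Sox7 (-/-) cells without or with Dex. All groups shared the Gata6GR transgene, expressed from the CAG promoter of a piggyBac vector, medium with LIF, and at least 1 Sox7 allele whose coding region had been replaced by a puromycin-resistance cassette. Each genotype was a single line: the Sox7 (-/-) line was a clone obtained from the Sox7 (+/-) line by high-dose puromycin selection, so genotype and clone cannot be told apart. Cells with 2 intact Sox7 alleles and Dex-treated cells without Gata6GR were not among the arrays. Neither the labels nor the methods say that the replicates were separate cultures, and in the source labels the 3 arrays of Sox7 (+/-) ES cells share replicate number 1. The p-values then measure only the spread between these samples, which may be technical.

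In the heart, Gata4 and Nkx2-5 bind DNA together at many muscle genes, with Tbx5, Tbx20, Mef2c and the Hand factors acting in different parts of the forming chambers. Myocardin, the product of Myocd, does not bind DNA itself but activates genes of cardiac and smooth muscle through serum response factor, which binds the CArG box. Gata4 and Gata6 also act in primitive endoderm, the lineage that XEN-like cells resemble, and Sox7 belongs to the same Sox subgroup as Sox17 and Sox18.

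The probes through which the genes were read are shown for the genes the results turn on, as the first 30 bases of each 60-base probe, all in lower case. Hand1 is shown with both of its probes, because these gave different results.

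Nkx2-5, chr17:26975621-26975680 of mm9, minus strand, from base 1453 of the transcript: acccgtatttatgtttttacctgttgtaag
Myocd, chr11:64991930-64991989 of mm9, minus strand, from base 3200 of the transcript: taatctgaattcccctatggatctccactt
Myl3, chr9:110672238-110672297 of mm9, plus strand, from base 837 of the transcript: acctgtgcttgcctttctgtatccaccctg
Hand1, brighter probe, chr11:57642342-57642401 of mm9, minus strand, from base 1711 of the transcript: aaataaaagcgttcccattcgttgctgaat
Hand1, dimmer probe, chr11:57646257-57646316 of mm9, minus strand, from base 4 of another transcript: tttacaccgaaccaggcgcctgagaggcta

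The promoters of 3 members are shown because these genes rose together in Sox7 (+/-) cells but not alike in Sox7 (-/-) cells. Each is the 250 bases before the transcription start from RefSeq on GRCm38.p6. The capitals mark matches, on either strand, to the GATA motif (GATAA or GATAG after an A or a T), a Sox motif (AACAAT) or the CArG box.

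Nkx2-5, chr17:26841566-26841815, minus strand: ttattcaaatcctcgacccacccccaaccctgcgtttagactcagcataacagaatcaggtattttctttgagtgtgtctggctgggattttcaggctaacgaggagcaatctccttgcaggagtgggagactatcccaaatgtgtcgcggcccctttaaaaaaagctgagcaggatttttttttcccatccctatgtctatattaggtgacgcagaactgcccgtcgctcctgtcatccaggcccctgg
Myl3, chr9:110763428-110763677, plus strand: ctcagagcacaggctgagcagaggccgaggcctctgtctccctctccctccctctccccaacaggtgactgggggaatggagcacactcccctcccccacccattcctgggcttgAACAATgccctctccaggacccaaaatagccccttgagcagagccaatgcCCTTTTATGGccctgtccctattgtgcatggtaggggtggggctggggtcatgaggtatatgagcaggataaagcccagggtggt
Myl7, chr11:5898783-5899032, minus strand: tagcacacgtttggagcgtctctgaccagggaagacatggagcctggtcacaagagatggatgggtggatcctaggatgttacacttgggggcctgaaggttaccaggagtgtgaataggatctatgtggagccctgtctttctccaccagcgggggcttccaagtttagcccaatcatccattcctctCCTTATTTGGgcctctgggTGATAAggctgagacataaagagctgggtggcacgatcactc

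Myl3 and Myl7, both light chains of myosin, each held a CArG box, beginning at -85 and -61 from the start. Over the windows from 250 bases before to 50 after the start, 1.63% of 32851 mouse promoters held a CArG box. Myl7 held a GATA motif at -42, Myl3 one at 12 past the start, and Hand2 had 2, at -215 and -172. Of all windows 29.8% held a GATA motif. The Sox motif of Myl3, at -135, is of a kind present in 10.7% of windows. The Nkx2-5 window held none of these letters, as did those of Mef2c and Tbx20, while 1 of 2 Tnnt2 windows held a GATA motif. Windows were found for 7 of the 10 genes. Myocd, Hand1 and Tbx5 were not among them.

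Signals are given as percent of the 75th percentile of the processed signal of the array, and levels of different probes cannot be compared. The test took probes whose signal exceeded background clearly on each of the 3 arrays of any group, in all 25940 probes, among them 7 probes of 6 of these genes. A call required an adjusted p under 0.05 over all tested probes and a change over 2-fold. Probes that passed this filter only through the group in which they were high have calls that are not independent of it. The targeted gene, Sox7, read between 218 and 229 on the Sox7 (+/-) ES arrays and between 490 and 688 on the Sox7 (+/-) XEN-like arrays, and was not well above background on any of the 6 Sox7 (-/-) arrays. Whether its probe lies in the replaced part is not given in the sources used here. Of 11 XEN cell markers, 8 rose with Dex in Sox7 (+/-) cells and 9 in Sox7 (-/-) cells, and none fell. Of 8 ES cell markers, 6 fell and 1 rose in Sox7 (+/-) cells, and 7 fell and none rose in Sox7 (-/-) cells. Replicate 3 of the Sox7 (+/-) XEN-like cells stood apart, with 2152 tested probes, 8.30%, over 2-fold from the mean of the other 2 arrays, against 172 to 846 probes for any other array. For the members read by 1 tested probe, the differences of means described below that include it are given with and without it. Those of other genes include it unless said otherwise.

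With Dex, 5 of the 6 tested genes rose in Sox7 (+/-) cells, Nkx2-5, Myocd, Hand2, Myl3 and Myl7, and Hand1 fell. All 6 were called without the array that stood apart as well. For comparison, 11% of all tested probes were called higher and 14% lower, and the median change over all tested probes was 0.16 on the log2 scale. Myocd and Hand2 had passed the filter on dim probes only through the Sox7 (+/-) XEN-like cells, in which they were high. Nkx2-5 passed only through XEN-like cells and the brighter Hand1 probe only through ES cells. For these genes the filter and the test are not independent. The other 4 genes are described below. The test has no comparison with Dex on cells lacking Gata6GR, so Dex and Gata6 activation cannot be told apart.

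**Figure D1:**
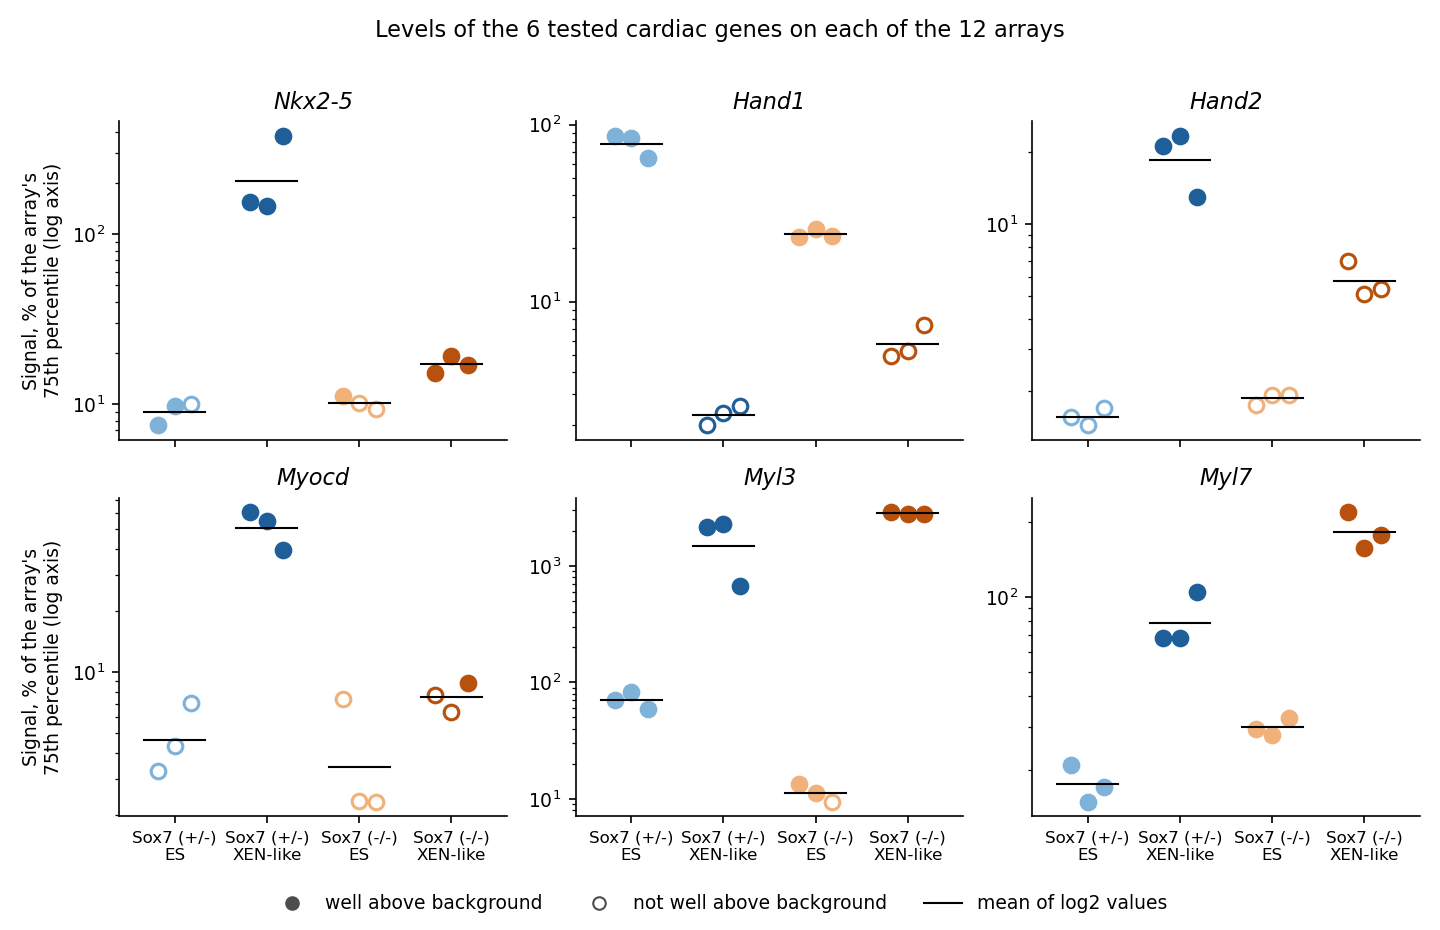
Signals of the 6 tested cardiac genes on each of the 12 arrays, as percent of the 75th percentile of the array on a log axis that differs between panels, with filled points well above background, open points not, and bars at the means of the log2 values of the 3 arrays. Nkx2-5, Myocd and Hand2 were high in Sox7 (+/-) XEN-like cells alone, Hand1 was high in ES cells, and Myl3 and Myl7 were high in XEN-like cells of both genotypes.

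Nkx2-5, the homeodomain factor of early heart progenitors, read 7.50, 9.74 and 10.03 on the Sox7 (+/-) ES arrays and 155, 146 and 378 on the XEN-like arrays of the same cells. The highest ES value was far below the lowest XEN-like value, and the array that stood apart held the highest Nkx2-5 signal. The rise was 22.6-fold, 4.50 ± 0.31 on the log2 scale (SE, n = 3 and 3), with an adjusted p from limma of 6.0e-07. Without that array it was 4.06. Nkx2-5 read, in Sox7 (-/-) cells, 11.2, 10.1 and 9.35 in ES cells and 15.2, 19.3 and 17.1 in XEN-like cells. These groups did not overlap, but the difference was 0.75 ± 0.31 (log2), and 2 of the 3 Sox7 (-/-) ES arrays were not well above background. All 3 Sox7 (-/-) XEN-like arrays read above every ES array and below every Sox7 (+/-) XEN-like array. The genotype difference in XEN-like cells was -3.58 ± 0.31 (log2), or -3.13 without the array that stood apart and -2.31 in the unscaled table the authors deposited.

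Myocd, which encodes the co-activator myocardin, was not well above background on any of the 6 ES arrays. It read 3.26, 4.32 and 7.03 in Sox7 (+/-) ES cells and 60.7, 55.0 and 39.8 in Sox7 (+/-) XEN-like cells. That is a rise of at least 7.79-fold, counted against the lowest signal that was well above background on each ES array. The measured log2 difference was 3.46 (limma, adjusted p = 5.8e-05), or 3.64 without the array that stood apart. In Sox7 (-/-) cells the values were 7.37, 2.33 and 2.31 without Dex and 7.68, 6.37 and 8.82 with Dex. Here the groups overlapped, only the array at 8.82 was well above background, and no fold can be given. Between the genotypes, the XEN-like arrays did not overlap and differed by -2.76 ± 0.43 (log2), by -2.94 without the array that stood apart, and by -1.20 in the unscaled deposited table.

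Hand2, a basic helix-loop-helix factor of the right ventricle and outflow tract, was well above background on the Sox7 (+/-) XEN-like arrays alone. It read 1.56, 1.44 and 1.70 in Sox7 (+/-) ES cells and 21.1, 23.3 and 12.9 in the XEN-like cells, a rise of at least 2.98-fold. The array that stood apart held the lowest of the 3 XEN-like values. The measured log2 difference was 3.57 with it (limma, adjusted p = 1.4e-07) and 3.83 without it. In Sox7 (-/-) cells it read 1.76, 1.92 and 1.94 without Dex and 6.97, 5.11 and 5.32 with Dex, all not well above background. Compared with the Sox7 (-/-) XEN-like arrays, Hand2 was thus at least 2.48-fold higher on the Sox7 (+/-) ones. The difference of the measured means was -1.69 (log2), -1.95 without the array that stood apart and -0.48 in the deposited table. Nkx2-5, Myocd and Hand2 had in common that every Sox7 (-/-) XEN-like array read below every Sox7 (+/-) XEN-like array.

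Hand1, the relative of Hand2 found in the left ventricle and in extraembryonic mesoderm, went the other way. Its brighter probe read 86.3, 83.7 and 65.0 in Sox7 (+/-) ES cells and 2.003, 2.36 and 2.58 in XEN-like cells, where no array was well above background. It fell at least 8.28-fold, with a measured log2 difference of -5.08 (limma, adjusted p = 3.2e-09). In Sox7 (-/-) cells it read 23.3, 25.8 and 23.6 without Dex and 4.96, 5.24 and 7.43 with Dex, again with no XEN-like array well above background, which makes the ES cells at least 3.101-fold higher. The dimmer probe, at the start of another transcript, did not show this fall. It read 9.39, 4.25 and 15.8 in Sox7 (+/-) ES cells against 6.19, 9.16 and 5.16 in XEN-like cells, a difference of -0.37 with a 95% interval from -1.38 to 0.64 (log2; limma, adjusted p = 0.50). On this probe the Sox7 (-/-) XEN-like arrays read 21.7, 19.7 and 9.86, all well above background. They were at least 1.72-fold higher than the Sox7 (+/-) XEN-like arrays. The dimmer probe passed the filter on dim probes only through this group, so neither its detection there nor the bound is independent of the filter.

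Myl3, the essential myosin light chain of ventricle and slow muscle, rose in cells of both genotypes. It read 70.7, 82.2 and 59.0 in Sox7 (+/-) ES cells and 2135, 2305 and 665 in XEN-like cells, the lowest of these on the array that stood apart. The rise was 21.2-fold, 4.41 ± 0.39 (log2; limma, adjusted p = 4.4e-06), and 4.99 without that array. Without Sox7, Myl3 read 13.5, 11.2 and 9.44 without Dex and 2877, 2811 and 2786 with Dex, a difference of 7.97 ± 0.39 (log2). The larger difference came with a lower starting level. Among XEN-like cells the 3 Sox7 (-/-) arrays were above all Sox7 (+/-) arrays, by 0.93 ± 0.39 (log2) in the mean, but by 0.35 without the array that stood apart.

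Myl7, the regulatory light chain of atrial myosin, was well above background on all 12 arrays. It read 21.1, 15.0 and 17.2 in Sox7 (+/-) ES cells and 68.2, 68.4 and 105 in XEN-like cells, a rise of 4.48-fold, 2.16 ± 0.19 (log2; limma, adjusted p = 4.6e-06), and 1.96 without the array that stood apart. In Sox7 (-/-) cells the values were 29.4, 27.7 and 32.4 without Dex and 219, 157 and 177 with Dex, a difference of 2.61 ± 0.19 (log2). At each state the Sox7 (-/-) arrays read above all Sox7 (+/-) arrays, in XEN-like cells by 1.21 ± 0.19 (log2), or 1.42 without the array that stood apart. Myl7 was the member whose Dex responses were closest between the genotypes, differing by 0.45 ± 0.27 (log2), or 0.66 without that array and 0.89 in the deposited table. Against Sox7 (+/-) XEN-like cells, the Sox7 (-/-) means of 3 members were thus lower, Nkx2-5, Myocd and Hand2, and those of Myl3, Myl7 and the brighter Hand1 probe were higher, with no overlap between the arrays of the genotypes in any of the 6. The brighter Hand1 probe was below background on both sides. Over all tested probes with a value on each of these arrays, the genotypes did not overlap for 24.7% with higher and 21.5% with lower Sox7 (-/-) signals, and 3.86% and 3.65% were called. The choice of these genes used this comparison, and nothing is read from their count.

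**Figure D2:**
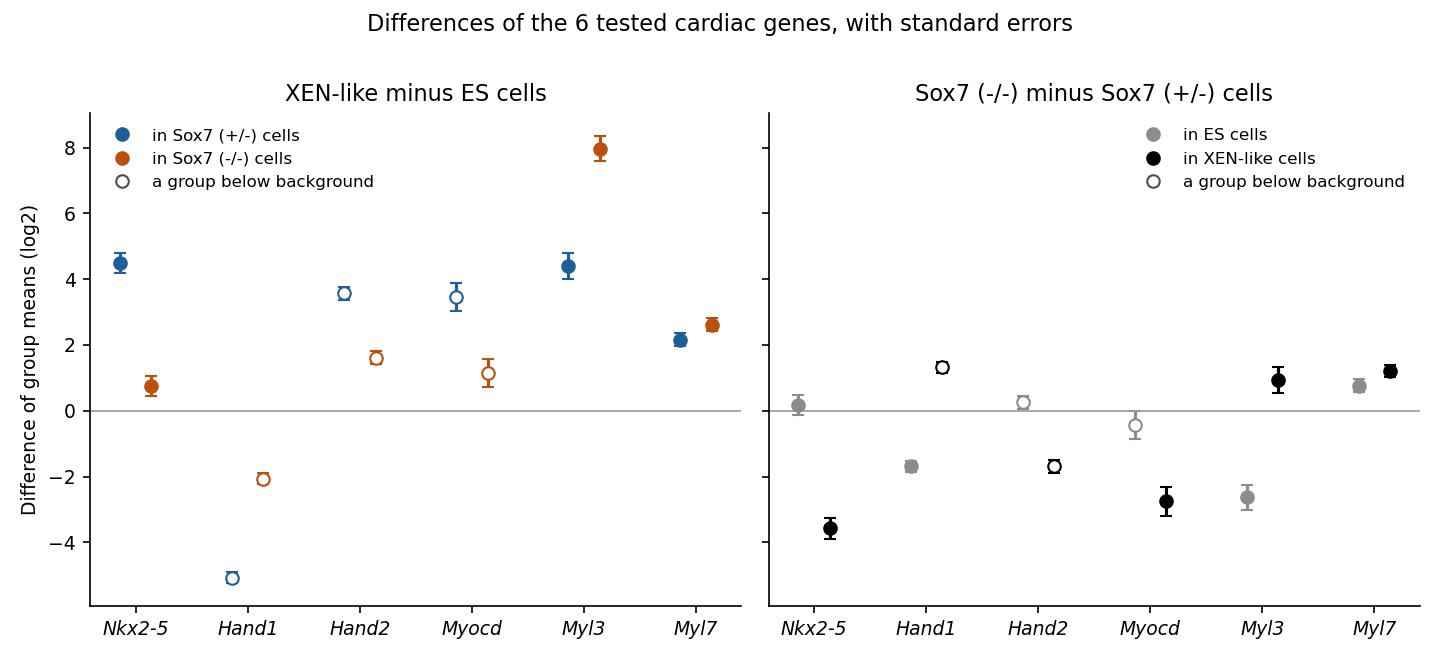
Differences of the group means of the 6 tested cardiac genes on the log2 scale, with standard errors: XEN-like minus ES cells in each genotype on the left, and Sox7 (-/-) minus Sox7 (+/-) cells in ES and in XEN-like cells on the right, with open points where a group was not well above background on any array. The Dex response of Nkx2-5 was 4.50 with 1 Sox7 allele and 0.75 with none, and that of Myl3 4.41 and 7.97.

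The other 4 genes passed the filter on dim probes in no group and were not tested. Tbx5, a T-box factor of atria and left ventricle, read between 1.77 and 3.005 over the 12 arrays, and Mef2c, a partner of the other cardiac factors, between 1.36 and 4.07, neither well above background on any array. Tnnt2, the cardiac troponin T of the thin filament, read between 2.77 and 10.9 and was well above background on 3 arrays, 1 of Sox7 (+/-) ES cells and 2 of Sox7 (-/-) XEN-like cells. Tbx20 has 3 probes. One was well above background on 2 Sox7 (+/-) ES arrays, at 13.1 and 12.6, one on no array, and one on a single Sox7 (-/-) XEN-like array, at 28.1, where the other 2 arrays of the group read 1.46 and 1.41.

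In ES cells without Dex, none of the 6 genes was called higher in Sox7 (-/-) cells and 2 were called lower, Myl3 and Hand1. Over all tested probes, 1.95% were called higher and 6.67% lower. Myl3 was 6.22-fold lower, -2.64 ± 0.39 on the log2 scale (limma, adjusted p = 0.00051), and Hand1 by its brighter probe 3.21-fold lower, -1.68 ± 0.17 (limma, adjusted p = 4.2e-05). No array of one genotype overlapped with the other for either gene. Myl3 was chosen for its rise in Sox7 (-/-) cells, which uses the same Sox7 (-/-) ES arrays. Its call and p-value here are therefore not independent of the choice. The dimmer Hand1 probe differed by 0.05, with a 95% interval from -0.96 to 1.07 (log2). Myl7 was higher in Sox7 (-/-) ES cells by 0.76 ± 0.19 (log2; limma, adjusted p = 0.0095), under the 2-fold limit. Nkx2-5 differed by 0.18, with an interval from -0.51 to 0.86, and Myocd and Hand2 were not well above background in either genotype. All Sox7 (+/-) ES arrays lay on 1 slide and all Sox7 (-/-) ES arrays on the other, so the direct comparison holds a slide difference. Of the Sox7 (-/-) XEN-like arrays, replicate 1 lay on the slide of the Sox7 (-/-) ES arrays and replicates 2 and 3 on the other. The Dex response of Sox7 (-/-) cells, the genotype difference in XEN-like cells and the differences in Dex response therefore also hold part of it. A slide block rests on the Sox7 (-/-) XEN-like arrays alone. With the slide as a block, the difference was -2.68 for Myl3 (limma, adjusted p = 0.049), -1.35 for Hand1 (limma, adjusted p = 0.018) and 0.37 for Myl7 (limma, adjusted p = 0.51).

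Markers of other lineages also differed between the ES cells. Of 5 tested mesoderm genes 1 was lower in Sox7 (-/-) ES cells, the factor T (brachyury). It read between 60.3 and 77.0 in Sox7 (+/-) ES cells and was not well above background on the other 9 arrays. That is at least 7.24-fold lower in Sox7 (-/-) ES cells, with a limma adjusted p of 6.5e-06 for the measured difference. T passed the filter on dim probes only through the Sox7 (+/-) ES arrays, so its p-value is not independent of the filter. Of 9 tested smooth muscle genes, 6 were lower in Sox7 (-/-) ES cells and none higher, and the mean log2 signal of the 9 lay between 1.15 and 1.27 on the Sox7 (+/-) ES arrays and between -0.68 and -0.37 on the Sox7 (-/-) ES arrays. The defining smooth muscle genes Myh11, Actg2 and Lmod1 were not well above background on any array. In these bulk samples, fewer cells of a type and less RNA per cell cannot be told apart. The part of these other lineages in the values of Myl3 and Hand1 was not tested. Of the other marker lists, 3 of 6 skeletal muscle, 1 of 5 endothelial and 4 of 6 visceral endoderm genes tested were lower in Sox7 (-/-) ES cells and none was higher. The ES cell markers went the other way, with 3 of 8 higher in Sox7 (-/-) ES cells and none lower. None of the 11 XEN cell markers was called there. In XEN-like cells, 5 of the 6 visceral endoderm genes and 2 of the 6 skeletal muscle genes were higher in Sox7 (-/-) cells, as was 1 mesoderm gene, while 1 mesoderm, 1 endothelial and 1 smooth muscle gene were lower. Of the ES cell markers 2 were higher and 1 lower in these cells, and 1 XEN cell marker was higher.

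Cardiac genes that are not among the 10 were read from 3 lists of 64 genes in all, of which 43 were tested. With Dex, 14 of the 43 rose and 12 fell in Sox7 (+/-) cells, with a median of 0.27 on the log2 scale. Of all tested probes, 11% rose and 14% fell in these cells, with a median of 0.16. In Sox7 (-/-) cells 17 rose and 12 fell, again with a median of 0.27, where 14.6% of all tested probes rose and 14.2% fell and the median of all was 0.07. Of 24 tested cardiac regulators, 9 rose and 5 fell in Sox7 (+/-) cells, and 9 rose and 7 fell in Sox7 (-/-) cells. Gata4, the cardiac and endodermal GATA factor, rose by 1.54 ± 0.10 in Sox7 (+/-) and by 1.74 ± 0.10 in Sox7 (-/-) cells (log2; limma, adjusted p = 3.1e-07 and 9.7e-08). The largest rises in Sox7 (+/-) cells were those of Nfatc1, a factor of heart valve endocardium, by 3.81 ± 0.30, Tbx18, a T-box factor of the epicardium and sinus node, by 3.43 ± 0.23, and Hey2, a target of Notch, by 3.30 ± 0.54 (log2). Without the array that stood apart these rises were 3.85, 3.34 and 4.08, with Hey2 then the largest. The largest falls were those of Foxh1, a partner of Smad proteins, with a change of -4.27 ± 0.29, Tbx1, a factor of the second heart field, and Mef2b. Hey2 and Tbx1 were below background in ES and XEN-like cells, respectively, with bounds of at least 2.41-fold higher and 4.36-fold lower. Tbx18 read 50.7 to 68.9 on the Sox7 (+/-) XEN-like arrays and 12.4 to 17.5 on the Sox7 (-/-) XEN-like arrays, and was the only one of the 24 called between the genotypes in XEN-like cells, by -2.10 ± 0.23 (log2; limma, adjusted p = 0.00012).

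**Figure D3:**
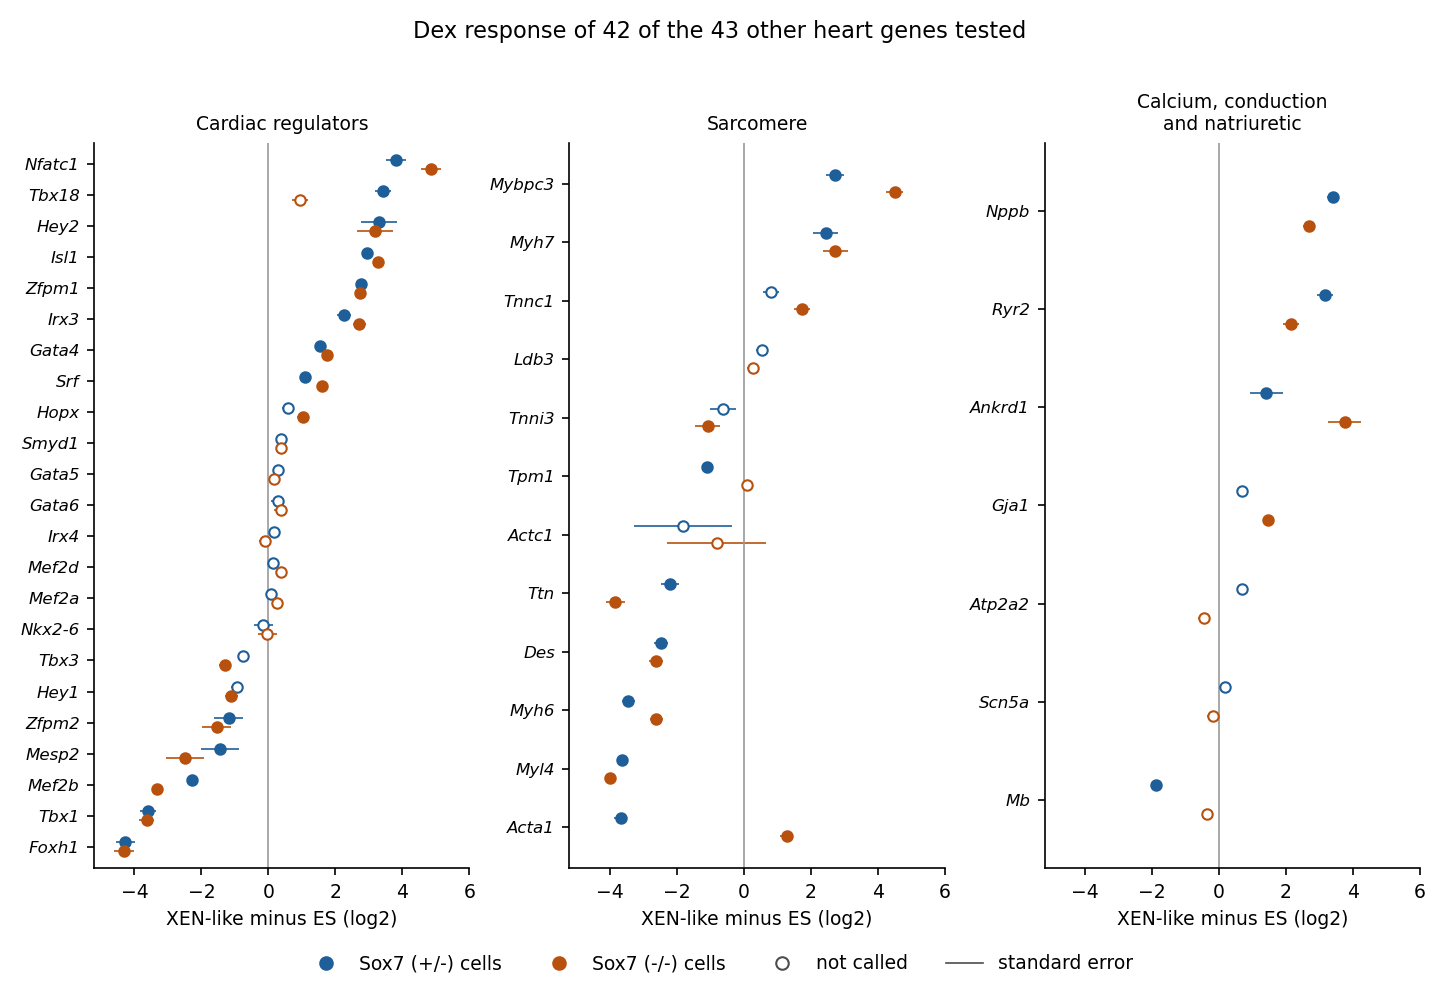
Dex response (XEN-like minus ES cells, log2) of 42 of the 43 other heart genes tested, in 3 lists and in order of the response in Sox7 (+/-) cells, with the limma estimates as points, filled where called and open where not, and lines for standard errors. Nfatc1, Mybpc3 and Nppb head the lists in Sox7 (+/-) cells, and Acta1 fell by 3.67 in Sox7 (+/-) and rose by 1.29 in Sox7 (-/-) cells.

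Of 12 tested sarcomere genes, 2 rose and 6 fell in Sox7 (+/-) cells, and 4 rose and 5 fell in Sox7 (-/-) cells. Mybpc3, the cardiac myosin-binding protein C, rose by 2.73 ± 0.27 in Sox7 (+/-) and by 4.51 ± 0.27 in Sox7 (-/-) cells (log2; limma, adjusted p = 8.7e-06 and 1.5e-07). Like Myl3 and Myl7, its level in XEN-like cells was higher for Sox7 (-/-), by 1.78 (log2; limma, adjusted p = 0.00083). Myh7, the slow myosin heavy chain, rose by 2.46 in Sox7 (+/-) cells and was at least 5.43-fold higher with Dex in Sox7 (-/-) cells, but was lower in Sox7 (-/-) XEN-like cells, with a difference of -2.21 (log2; limma, adjusted p = 0.0017). Falling genes in Sox7 (+/-) cells were headed by Acta1, skeletal alpha-actin, at -3.67, Myl4, the atrial essential light chain, at -3.65, and Myh6, the alpha myosin heavy chain, at -3.45 (log2). Acta1 was the third sarcomere gene called in XEN-like cells, higher in Sox7 (-/-) cells by 1.16 (log2; limma, adjusted p = 0.0018), or by 0.996, no longer past 2-fold, without the array that stood apart.

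Of 7 tested genes of calcium handling, conduction and natriuretic peptides, 3 rose and 1 fell in Sox7 (+/-) cells, and 4 rose and none fell in Sox7 (-/-) cells. Nppb, which encodes the natriuretic peptide BNP, rose by 3.40 ± 0.17 and 2.70 ± 0.17 (log2; limma, adjusted p = 6.7e-08 and 3.0e-07). Ryr2, the calcium release channel of cardiac muscle, rose by 3.17 ± 0.23 in Sox7 (+/-) cells (log2; limma, adjusted p = 9.6e-07). Only 1 Sox7 (+/-) ES array was well above background for it. With Dex in Sox7 (-/-) cells, Ryr2 was at least 4.33-fold higher. Ankrd1, a stress-responsive titin-binding protein, rose by 1.42 ± 0.49, a call lost when any of 5 single arrays was left out, with the lowest value at 0.95 without replicate 1 of the Sox7 (+/-) XEN-like cells. It was at least 8.01-fold higher with Dex in Sox7 (-/-) cells. In XEN-like cells, Nppb and Ankrd1 differed by -2.79 and -1.71 (log2; limma, adjusted p = 2.9e-06 and 0.023), the second call again lost without any of 4 single arrays, to as little as -1.24. Without the array that stood apart, the XEN-like differences were -2.01 for Tbx18, 1.46 for Mybpc3, -2.77 for Myh7, -2.60 for Nppb and -2.32 for Ankrd1 (log2), all still called, and 25 of the 26 Dex responses of Sox7 (+/-) cells stayed called. Over the 3 lists, 2 of 43 genes were higher and 4 lower in Sox7 (-/-) XEN-like cells, beside the 3.86% and 3.65% of all tested probes given above. In ES cells 1 of 43 was higher and 11 were lower, beside 1.95% and 6.67% of all tested probes, in a comparison that holds the slide difference.

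Of the 20 sarcomere genes 4, and of the 16 genes of calcium handling, conduction and natriuretic peptides 6, were not well above background on any of the 12 arrays. These were Nppa, Pln, Csrp3, Hcn4, Gja5, Slc8a1, Ckm, Myom1, Myoz2 and Nebl. Of these lists 12 and 7 genes were tested. The skeletal muscle factors Myod1, Myf5, Myf6 and Myog were above background on none. The rise of Nkx2-5, Myocd, Hand2, Myl3 and Myl7 in Sox7 (+/-) XEN-like cells came with Tbx5 and Mef2c not well above background. Of the 12 tested sarcomere genes, 2 rose and 6 fell there.

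**Figure D4:**
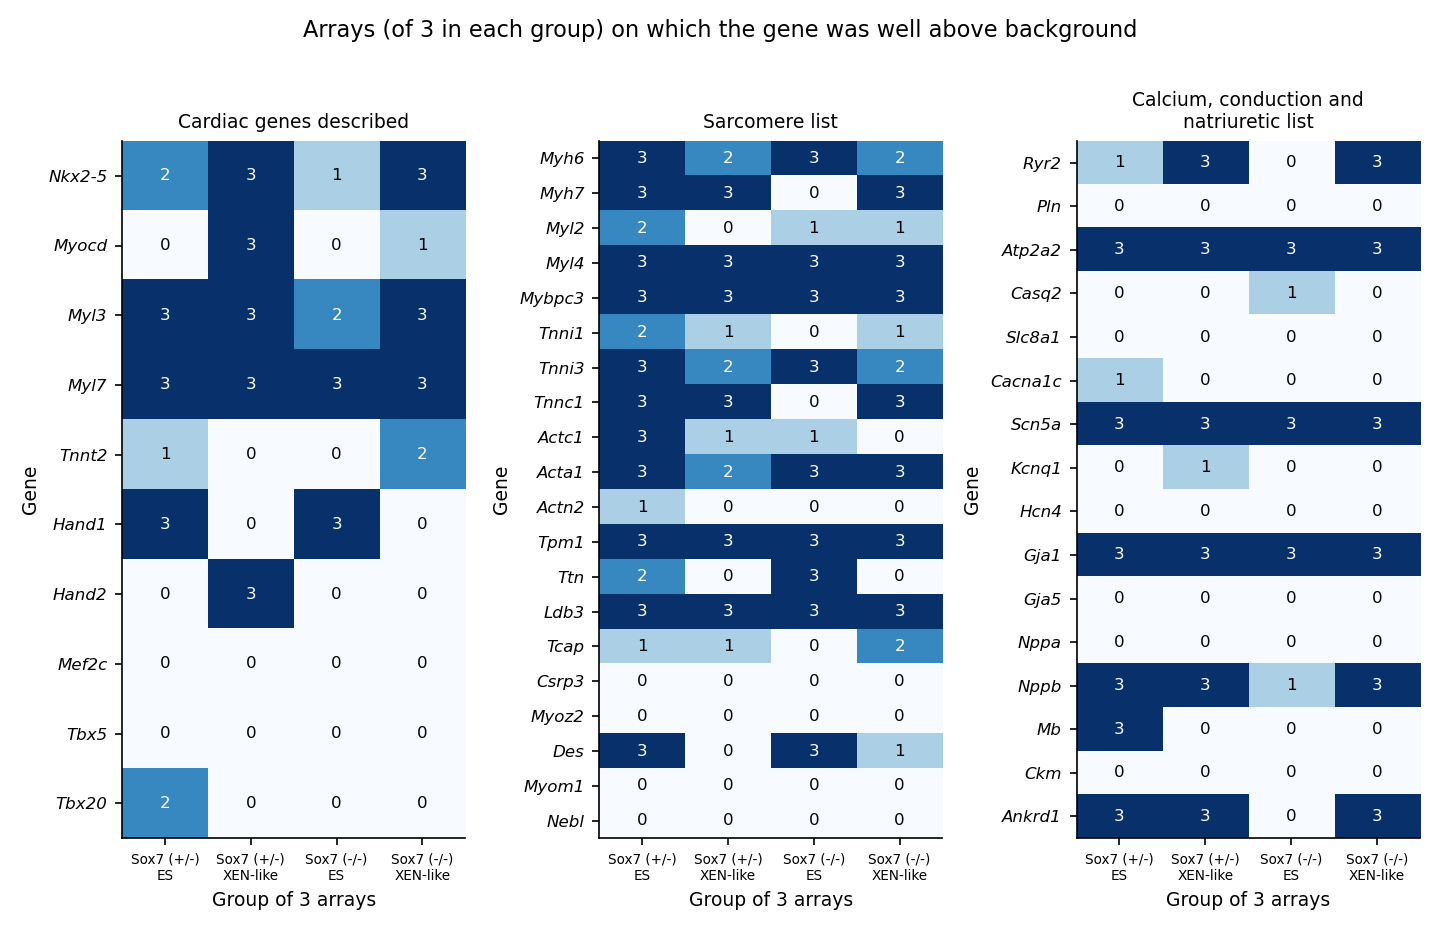
Number of arrays, of 3 in each group, on which a gene was well above background, for the 10 cardiac genes and for the genes of the sarcomere and of the calcium, conduction and natriuretic lists, by the probe with the most such arrays, and darker cells for more arrays. Mef2c and Tbx5 had none in any group, like Pln, Nppa and Hcn4, while Myl7 had 3 in every group.

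The genes whose signals followed those of Nkx2-5, Myocd and Myl3 most closely over the 12 arrays were taken from 18986 other genes, each by its brightest tested probe. The 12 arrays fall into 4 groups, so these correlations mostly restate the group means and are given as a description. For Nkx2-5 they were Cpne6 and Oprl1 (Pearson's r = 0.987 each) and Mrps6 (r = 0.980). Cpne6 had mean signals of 1.66 and 39.7 in Sox7 (+/-) ES and XEN-like cells and of 2.11 and 3.24 in Sox7 (-/-) cells. For Myocd they were Rai1 (r = 0.960), Rai2 (r = 0.953) and Gramd1a (r = 0.952), and for Myl3 Prkaa2 and Wls (r = 0.998 each) and Ctdspl (r = 0.997). Prkaa2 had means of 179 and 968 in Sox7 (+/-) ES and XEN-like cells and of 71.1 and 1164 in Sox7 (-/-) cells.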

How the data were processed

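RNA of 4 groups of 3 samples had been labelled with Cy3 and hybridized to 1-colour Agilent mouse arrays. The authors deposited the intensity values of each array as written by Agilent Feature Extraction 10.7.3.1 (version from the submitters' processing notes), in which the processed signal is background-subtracted and detrended but not scaled between arrays. They also deposited a table of intensity values for the series, which lay within 0.498% of the mean spot signal and is neither background-subtracted nor scaled. Probe positions are those of the files, on mm9.

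Control spots and flagged spots, 139 to 190 on an array, were left out, no spot was saturated, and spots of a probe were averaged on the log2 scale. From each log2 signal the 75th percentile of its array was subtracted, and this percentile lay between 252.3 and 415.9. The share of spots well above background was 41.7% to 52.3%. The number of arrays and the signal over background limit the precision. The 12 arrays entered 1 fit (limma 3.58.1, R 4.3.3) of the 4 group means, with 8 residual degrees of freedom and Benjamini-Hochberg adjustment over 25940 probes, and the procedure was tested on simulated data. A gene was read by its brightest tested probe. Where a group was not well above background on any array, a fold is a bound against the higher of the lowest signal well above background and the signal of the probe itself. Such bounds hold for the processed signal scaled in this way and were not tested, and p-values are those of the measured differences.

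The members, gene lists and tests were chosen with earlier results of these data known. The lists were cardiac regulators, sarcomere, and calcium handling, conduction and natriuretic genes, with smooth muscle, skeletal muscle, mesoderm, endothelium, visceral endoderm, XEN and ES cell markers for comparison, and they share some genes. Of the tested genes of the lists, 1 is counted in them but is not reported here. Named were all members, the targeted gene, of each list at most the 3 called genes with the largest change in each direction, defining markers below background, and the 3 genes most alike 3 of the members. A few others, Gata4, Mb, Tpm1, Ttn, Atp2a2 and Mef2b among them, were named after their values were seen. The arrays lay on 2 slides, 8 and 4, scanned on different days. Replicates of a group correlated with r between 0.982 and 0.996 across probes, while deviations from the group means correlated by -0.051 to 0.126 for arrays sharing a number, and no pairing was assumed.
Alternatives were other background corrections, scalings and filters, the mean of the probes of a gene, an intensity trend, replicate and slide blocks, fits of the compared arrays or of 1 slide alone, and leaving out each array. Those of the count of other heart genes in ES cells were added after seeing the data.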

Additional observations from a re-analysis of the deposited data

Results flagged for a closer look

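Among 42 other heart genes tested, 10 had Dex responses that differed between the genotypes by limma's test of the difference itself (adjusted p under 0.05 and over 2-fold), 5 with a higher response in Sox7 (-/-) cells and 5 with a lower one. Over all tested probes, 6.62% and 3.17% differed in these directions. The differences are those of log2 responses, Sox7 (-/-) minus Sox7 (+/-) cells. They hold a slide difference, because the Sox7 (-/-) ES arrays lay on another slide than all Sox7 (+/-) arrays.

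Acta1 had the largest difference, 4.96 ± 0.28, with a fall in Sox7 (+/-) and a rise in Sox7 (-/-) cells. Sox7 (+/-) ES cells read 187 to 199, Sox7 (-/-) ES cells 13.6 to 14.0. The higher responses of Ankrd1 (2.34), Mybpc3 (1.77), Mb (1.52) and Tpm1 (1.19) in Sox7 (-/-) cells also came, except for Mybpc3, with lower ES signals in that genotype. Lower responses in Sox7 (-/-) cells were those of Tbx18 (-2.48), Ttn (-1.63), Atp2a2 (-1.15), Mef2b (-1.05) and Ryr2 (-1.01). The calls of Tbx18, Acta1, Mybpc3 and Tpm1 held under every alternative run. Those of Mef2b, Ryr2, Atp2a2, Ttn, Mb and Ankrd1 were lost under 2 or more. Single arrays ended those of Mef2b, Ryr2, Atp2a2 and Ankrd1 when left out. Several of these differences rest in part on signals not well above background, where the measured value is no exact fold. Such were Mb on all arrays but those of Sox7 (+/-) ES cells, Ttn on all XEN-like arrays, and Ankrd1, Tbx18 and Ryr2 on the 3 Sox7 (-/-) ES arrays. Mb passed the filter on dim probes only through the Sox7 (+/-) ES arrays and Ttn only through the Sox7 (-/-) ES arrays. Their calls are not independent of the filter. With normexp background correction the difference was 0.61 for Ankrd1, 0.13 for Mb and -0.81 for Ttn. With no filter on dim probes Ttn was read by another probe, on which its Dex response was 1.32 and 0.46 in Sox7 (+/-) and Sox7 (-/-) cells instead of -2.20 and -3.83.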

How the results depend on the processing

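Of 707 values of single members under an alternative, 655 stayed on their side of the threshold or within the replicate spread and 50 moved by more. No sign reversed where a tested difference was called or a described one exceeded the replicate spread. A tested difference that was not called could change sign and still count among the 655. That of Hand2 in ES cells went from 0.26 to -0.16 with the slide as a block. The calls of 2 of the 707 values were lost: that of Hand1 in ES cells with the mean of its probes (-0.81) and that of Hand2 in the Dex response of Sox7 (+/-) cells with the unscaled deposited table (0.92). The deposited table also gave 2.72 for Nkx2-5 and 1.42 for Myocd there, and normexp background correction -2.02 for Hand1. Normexp gave 0.09 for the brighter Hand1 probe between the XEN-like cells, where Hand1, Hand2, Myocd and Nkx2-5 all moved with the deposited table. The cause was not tested. Restricting the test to probes well above background on all arrays, which leaves fewer genes, took the members called from 6 to 1 with Dex in Sox7 (+/-) cells and from 2 to 0 in ES cells, and the other heart genes called from 26 to 8 and from 29 to 11 with Dex in Sox7 (+/-) and Sox7 (-/-) cells, from 12 to 3 in ES cells and from 6 to 1 in XEN-like cells. In ES cells the mean of all probes of a gene left 1 member called, no filter gave 3 members, and normexp 7 other heart genes.

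Leaving out single arrays kept 6 and 2 members called, and 23 to 27, 26 to 29, 11 to 13 and 5 to 7 other heart genes in the same order. With the replicate number as a block the counts were 6 and 2 members and 26, 29, 12 and 6 other heart genes, so the pairing changed no count. With the slide as a block they were 6, 2, 26, 26, 9 and 5. Spike-in scaling moved the median of all probes in the Dex response of Sox7 (+/-) cells from 0.16 to -0.33 and the share of calls that were higher from 44.1% to 18.7%, and the deposited table took it to 19.6%. In XEN-like cells that share went from 51.4% to 76.7% and 89.9%. The signal over background limits the statements on Mef2c, Tbx5, Tbx20 and Tnnt2, and ES levels of Myocd and Hand2.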
